A study of Mus musculus with 10 samples.

Results

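The genes that release calcium from the endoplasmic reticulum and refill it were followed in 10 single inspiratory neurons of the preBötzinger complex (preBötC) of neonatal mice. The 10 genes were listed by name and role among the 55367 genes in the deposited tables. They are the IP3 receptors Itpr1, Itpr2 and Itpr3, the ryanodine receptors Ryr1, Ryr2 and Ryr3, the SERCA pump gene Atp2a2, the store sensors Stim1 and Stim2, and the plasma membrane entry channel gene Orai2. Each neuron was recorded in whole-cell patch clamp in a brainstem slice, its contents were drawn into the pipette, and 1 RNA-seq library was made from it with SMART-Seq v4.

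The preBötC is the brainstem site that generates the inspiratory rhythm, and the study sorted its neurons by their electrical behaviour. Type-1 neurons (samples 4, 5, 6 and 7), putatively rhythm-generating, had a long inspiratory drive latency and an A-type potassium current. The Type-2 neuron (sample 1), putatively pattern-generating, had a short latency and the hyperpolarization-activated current Ih, and it was the only one of its type. The Unknown neurons (samples 2, 3, 8, 9 and 10) were assigned to neither type. Samples 1, 5, 6 and 7 were Dbx1-derived neurons from offspring of Dbx1cre and Ai148 mice, on a C57Bl/6J or mixed C57Bl/6J and CD-1 background, in which Cre driven by the Dbx1 promoter switches on the fluorescent calcium indicator GCaMP6f. These neurons were picked by rhythmic fluorescence. Samples 2, 3, 4, 8, 9 and 10, labelled WT, came from CD-1 mice without the reporter and were picked for firing in time with the hypoglossal motor output. The animals were at postnatal day 0 for samples 1, 3, 5 and 8, at day 1 for sample 10, at day 2 for samples 2 and 9, and at day 3 for samples 4, 6 and 7. In samples 5 to 10 all 3 Type-1 neurons were Dbx1-derived and all 3 Unknown neurons were WT, so type and mouse line cannot be told apart there. Each sample was 1 neuron and the labels name no animal, so no test between groups was made and differences are descriptions of these neurons.

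As background, IP3 receptors open on the messenger IP3 made downstream of G protein-coupled receptors, whereas ryanodine receptors open on calcium itself and can amplify calcium that enters through membrane channels. SERCA pumps return the ion to the store, STIM proteins sense when the store runs low, and ORAI channels then let calcium in across the plasma membrane. In inspiratory neurons, store release has been considered as a source of the calcium that recruits calcium-activated cation current during a burst.

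The IP3 and ryanodine receptors are related tetrameric channels whose pores share a glycine-rich selectivity filter. The stretch that encodes it is shown for the 6 release channel genes, because the paralogs are compared with each other throughout and their reads can be assigned only where their sequences differ. Each sequence holds 54 bases of the coding strand, 5′ to 3′, within 1 exon, and the 18 bases in capitals encode the filter.
Itpr1: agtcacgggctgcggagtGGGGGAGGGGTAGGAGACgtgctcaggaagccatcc
Itpr2: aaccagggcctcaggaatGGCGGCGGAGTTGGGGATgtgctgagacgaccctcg
Itpr3: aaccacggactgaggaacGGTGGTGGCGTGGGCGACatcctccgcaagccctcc
Ryr1: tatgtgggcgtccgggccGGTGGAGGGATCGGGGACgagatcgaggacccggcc
Ryr2: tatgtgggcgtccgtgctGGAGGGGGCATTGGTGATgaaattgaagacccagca
Ryr3: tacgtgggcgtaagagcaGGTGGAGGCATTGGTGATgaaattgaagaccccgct
In build GRCm38, these lie at chr6:108518770-108518823 (plus strand) for Itpr1, chr6:146158893-146158946 (minus) for Itpr2, chr17:27118613-27118666 (plus) for Itpr3, chr7:29005580-29005633 (minus) for Ryr1, chr13:11560609-11560662 (minus) for Ryr2 and chr2:112636613-112636666 (minus) for Ryr3. Within these windows Itpr1 shared 34 of 54 bases with Itpr2 and 38 with Itpr3, and Itpr2 and Itpr3 shared 35. Ryr2 and Ryr3 were closest, with 45 identical bases, while Ryr1 shared 41 with Ryr2 and 40 with Ryr3. Over the whole coding transcripts, the longest identical run between any pair within a family was 35 bases, between Ryr1 and Ryr2, and it was 15 bases between Stim1 and Stim2. A read of 150 bases is longer than any of these runs.

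Library totals ran from 21392146 to 36629393 fragments counted on genes, and at these depths a count of 0 allows up to 3 fragments, which is at most 0.0155 FPKM for each of the 3 IP3 receptor genes in each neuron (FPKM, fragments per kilobase of gene length, scaled to the fragments counted in the library). Such limits cover counting error only, since amplified reads are not independent molecules. Between 5055 and 9307 genes reached 1 FPKM in a neuron, with 5055 to 6795 in samples 1 to 4 and 6632 to 9307 in samples 5 to 10. Sample 4, labelled Type-1, stood apart: its 8 neuronal marker genes summed to 58.4 FPKM against 761 to 4670 FPKM in the other neurons, and its 8 microglial marker genes, all at 1 FPKM or more, summed to 15398 FPKM against 0.685 to 2039 FPKM. All 10 astrocyte markers reached 1 FPKM in sample 8, and the astrocyte sum was lowest in sample 9, at 35.4 FPKM, and highest in sample 3, at 10482 FPKM. The 5 markers of cholinergic motoneurons summed to 1777 FPKM in sample 9, with all 5 at 1 FPKM or more, and to at most 1.69 FPKM elsewhere. Of 100 pairs of a store gene and a neuron, 43 reached 1 FPKM, each with at least 249 fragments, and 31 had no fragment. The remaining 26 pairs had a fragment but stayed under 1 FPKM, 21 of them on 50 or fewer fragments. From genes found almost only in 1 library, at most 22.9 fragments of any pair were expected to belong to other libraries, and counts of a few fragments are therefore given as such and not read as expression.

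**Figure D1:**
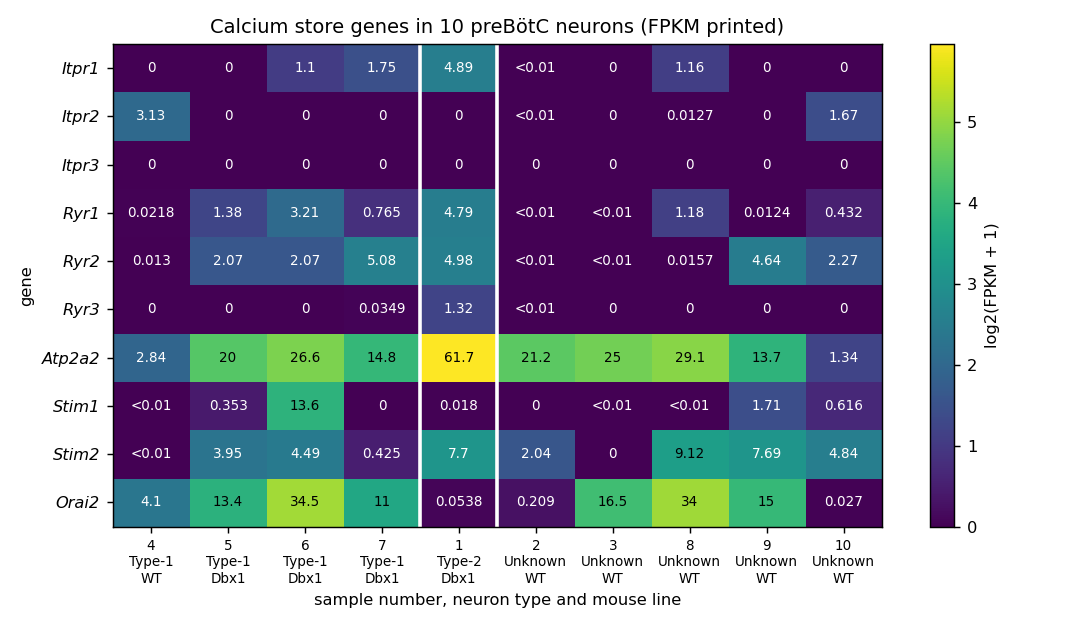
FPKM of the 10 store genes (rows) in each of the 10 neurons (columns, with sample number, neuron type and mouse line), coloured by log2(FPKM + 1) and with the FPKM printed. Atp2a2 was at 1.34 FPKM or more in every neuron, Itpr3 was at 0 in every neuron, and the other genes switched between neurons.

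Of the IP3 receptor genes, a neuron held either Itpr1 or Itpr2 at 1 FPKM or neither of them. Itpr1, the main IP3 receptor of central neurons, lies at chr6:108213096-108551109 on the plus strand. In the Type-1 neurons it was at 0, 0, 1.10 and 1.75 FPKM (samples 4, 5, 6 and 7), in the Type-2 neuron at 4.89 FPKM, and in the Unknown neurons at 0.00301, 0, 1.16, 0 and 0 FPKM (samples 2, 3, 8, 9 and 10). The 4 neurons at 1 FPKM or more rested on 566 to 1917 fragments, 5 neurons had none, and sample 2 had 2 fragments. Itpr1 was therefore high in the Type-2 neuron, intermediate in 3 others and at or near 0 in 6. The mean was 0.891 ± 1.55 FPKM (SD, n = 10 neurons), and 54.9% of the summed level came from sample 1.

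Itpr2, the receptor subtype most sensitive to IP3 and the common one in astrocytes, lies at chr6:146108299-146502223 on the minus strand. It reached 3.13 FPKM in sample 4 on 1365 fragments and 1.67 FPKM in sample 10 on 756 fragments. Sample 8 had 5 fragments, sample 2 had 1, and the other 6 neurons had none, so both neurons with Itpr2 were WT and the 4 Dbx1-derived neurons had no Itpr2 fragment. Astrocyte markers summed to 6540 FPKM in sample 4 and to 526 FPKM in sample 10. They summed to 5306, 10482 and 3638 FPKM in samples 2, 3 and 8, which had 1, 0 and 5 Itpr2 fragments. Microglial markers summed to 15398 FPKM in sample 4, the highest of all neurons, and to 219 FPKM in sample 10. In samples 2, 3 and 8 the microglial sums were 2039, 406 and 492 FPKM. Sample 4 was also the lowest for neuronal markers, at 58.4 FPKM. The part of glial RNA in the Itpr2 value of sample 4 was not tested. Itpr3, a subtype mostly of epithelial and secretory cells (chr17:27057304-27122223, plus strand), had 0 fragments in all 10 neurons. Samples 3, 5 and 9 held no fragment of any IP3 receptor gene.

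Ryr2, the cardiac ryanodine receptor that is also the main one in brain, was the release channel found in the most neurons. It lies at chr13:11553102-12106945 on the minus strand. Its values were 0.0130, 2.07, 2.07 and 5.08 FPKM in the Type-1 neurons (samples 4, 5, 6 and 7), 4.98 FPKM in the Type-2 neuron, and 0.00192, 0.00446, 0.0157, 4.64 and 2.27 FPKM in the Unknown neurons (samples 2, 3, 8, 9 and 10). Ryr2 was split into 6 neurons between 2.07 and 5.08 FPKM, on 1880 to 3757 fragments, and 4 neurons under 0.02 FPKM, on 2 to 12 fragments, with no value between. The 4 Dbx1-derived neurons were all on the high side, with the WT samples 9 and 10, and the low side was the WT samples 2, 3, 4 and 8. Of all genes with a mean of at least 1 FPKM, 40.9%, 37.9% and 47.4% reached it in samples 2, 3 and 4, and 66.7% in sample 8. Sample 1, on the high side, had 37.3%. Sample 4 was also the library with the most microglial transcripts. The part of library quality in this split was not tested. The mean was 2.12 ± 2.14 FPKM (SD, n = 10).

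Ryr1, the receptor of skeletal muscle, which is also expressed in some neurons, lies at chr7:29003344-29125179 on the minus strand. The Type-1 neurons held 0.0218, 1.38, 3.21 and 0.765 FPKM, the Type-2 neuron held 4.79 FPKM, and the Unknown neurons held 0.00379, 0.00294, 1.18, 0.0124 and 0.432 FPKM, in the same sample order. Unlike Ryr2, it had intermediate levels, in samples 7 and 10, on 429 and 288 fragments. Its mean was 1.18 ± 1.61 FPKM (SD, n = 10). The antisense gene Gm26604, chosen after its values were seen, overlaps Ryr1 exons and held 375, 158, 240, 295 and 148 fragments in samples 5, 6, 7, 9 and 10. SMART-Seq libraries do not mark strand, so fragments of that overlap cannot be told apart.

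Ryr3 (chr2:112631355-113217096, minus strand), the subtype known from hippocampus and other forebrain areas, reached 1 FPKM only in the Type-2 neuron, at 1.32 FPKM on 535 fragments. It had 17 fragments in sample 7, 1 in sample 2 and none in the other 7 neurons, and its mean was 0.135 ± 0.416 FPKM (SD, n = 10). The exons of Ryr3 overlap those of Aven on the other strand, a gene chosen after its values were seen. Aven held 1553 fragments in sample 7, the library with 17 Ryr3 fragments, 1754 in sample 10, which had no Ryr3 fragment, and 4 in sample 1, where Ryr3 was highest.

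Read together per neuron, 5 neurons had both an IP3 and a ryanodine receptor at 1 FPKM (samples 1, 6, 7, 8 and 10). Samples 5 and 9 had ryanodine receptors alone, sample 4 had an IP3 receptor alone, and samples 2 and 3 had neither. Some of these states rested on values just above the cutoff: Itpr1 at 1.10 and 1.16 FPKM in samples 6 and 8, and Ryr1 at 1.18 FPKM in sample 8. With TMM library sizes, another scaling of the libraries, Itpr1 was at 1 FPKM in 2 neurons and Ryr1 in 3, not 4 each. The states were not counted again under that scaling. The summed ryanodine receptor level was 11.1 FPKM in the Type-2 neuron, against 3.45, 5.28 and 5.88 FPKM in the Dbx1-derived Type-1 neurons (samples 5, 6 and 7) and 1.20, 4.65 and 2.70 FPKM in samples 8, 9 and 10. The Type-2 neuron was thus the highest of all 10 for summed IP3 receptors (4.89 FPKM) and for summed ryanodine receptors, and the only one with 3 ryanodine receptor genes at 1 FPKM. Where any ryanodine receptor reached 1 FPKM, Ryr2 led in 5 neurons (samples 1, 5, 7, 9 and 10) and Ryr1 in samples 6 and 8. The lead ranged from 44.9% of the family sum for Ryr2 in sample 1 to 99.7% for Ryr2 in sample 9. Sample 6 was led by Ryr1 with 60.7% and sample 8 with 98.7%.

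**Figure D2:**
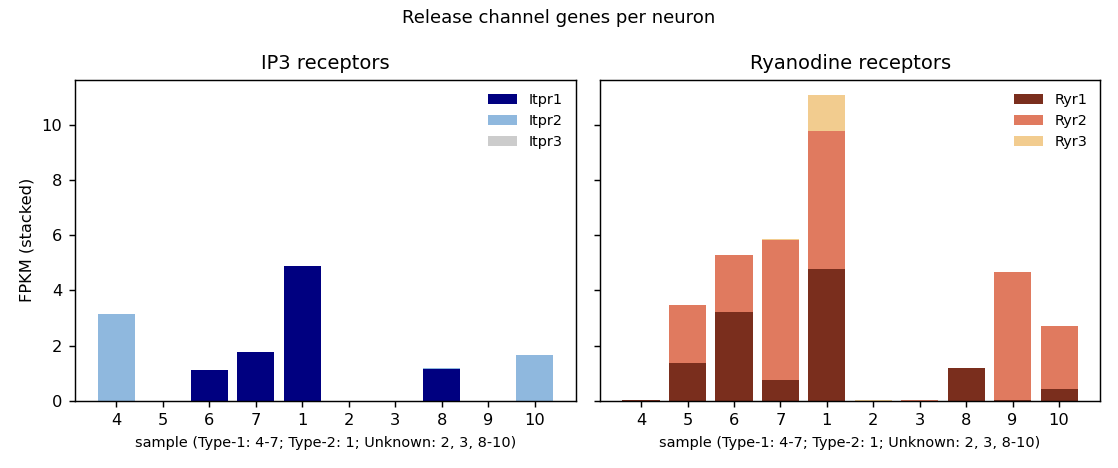
Stacked FPKM of the 3 IP3 receptor genes (left) and the 3 ryanodine receptor genes (right) in each neuron, with the samples ordered Type-1 (4 to 7), Type-2 (1) and Unknown (2, 3, 8 to 10). No bar at left holds Itpr1 and Itpr2 together at 1 FPKM, and the Type-2 neuron has the tallest bar in both panels, 4.89 and 11.1 FPKM.

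Among the genes of refilling, Atp2a2, the SERCA2 pump gene (chr5:122453513-122502225, minus strand), was the highest of the 10 store genes by mean and was found in every neuron. The Type-1 neurons held 2.84, 20.01, 26.6 and 14.8 FPKM, the Type-2 neuron held 61.7 FPKM, and the Unknown neurons held 21.2, 25.0, 29.1, 13.7 and 1.34 FPKM. Samples 4 and 10 were low, on 508 and 249 fragments, the Type-2 neuron was high, and the 7 others lay between 13.7 and 29.1 FPKM. The exact Poisson interval of the 249 fragments in sample 10 was 219 to 282 fragments. The mean was 21.6 ± 16.9 FPKM (SD, n = 10). Across all genes with a mean of at least 1 FPKM, 19.6% reached 1 FPKM in at least 9 neurons, and Atp2a2 was the only store gene that did. With TMM or median-of-ratios library sizes, 2 other scalings, Atp2a2 was at 1 FPKM in 9 neurons, not 10.

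Atp2a2 exons overlap Gm43361, a gene on the other strand chosen after its values were seen, which held 295 fragments in sample 10, 1054 in sample 6, 6 in sample 4, 2 in sample 5 and none in the remaining neurons. Reads of Atp2a2 and of this gene cannot be told apart where they overlap. The other SERCA genes were at or near 0. Atp2a3 had no fragment in any neuron, and Atp2a1 had a highest level of 0.00942 FPKM, in sample 10. Both, like Casq1 below, were chosen after their values were seen. The 2 neurons with Itpr2 were the 2 lowest for Atp2a2.

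The pump and the release channels did not keep a fixed ratio. The FPKM of Atp2a2 divided by the summed release channels was 3.86 in the Type-2 neuron, 5.79, 4.17 and 1.94 in samples 5, 6 and 7, and 12.3, 2.93 and 0.307 in samples 8, 9 and 10. Sample 4 was at 0.896. In samples 2 and 3 the pump gene was at 21.2 and 25.0 FPKM. The ryanodine receptors summed to 0.00716 and 0.0074 FPKM there and the IP3 receptors to 0.00487 and 0 FPKM. These libraries thus held pump transcript with next to no release channel transcript. They were also the libraries with only 2 store genes at 1 FPKM. Of all genes with a mean of at least 1 FPKM, 40.9% and 37.9% reached it in samples 2 and 3. Astrocyte markers summed to 5306 and 10482 FPKM there. The study reports that these libraries were among those with the least cDNA and with lower, more variable expression of some genes. The part of low cDNA and of glial RNA in these values was not tested.

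Of the sensor genes, Stim2 was found in more neurons. It encodes the STIM protein that responds to small falls in store calcium and lies at chr5:53998499-54121057 on the plus strand. The Type-1 neurons held 0.00662, 3.95, 4.49 and 0.425 FPKM, the Type-2 neuron held 7.70 FPKM, and the Unknown neurons held 2.04, 0, 9.12, 7.69 and 4.84 FPKM. It was at 1 FPKM or more in 7 neurons, intermediate in sample 7 on 56 fragments, and at 1 or 0 fragments in samples 4 and 3. The mean was 4.03 ± 3.38 FPKM (SD, n = 10).

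Stim1, the sensor that opens ORAI channels most strongly on store depletion, lies at chr7:102267806-102437319 on the plus strand. The Type-1 neurons held 0.00328, 0.353, 13.6 and 0 FPKM, the Type-2 neuron held 0.0180 FPKM, and the Unknown neurons held 0, 0.00310, 0.00363, 1.71 and 0.616 FPKM. Sample 6 alone, with 4434 fragments, gave 83.4% of the summed level. Among all genes with a mean of at least 1 FPKM, 37.1% took over 50% of their summed level from 1 neuron, so a gene led by 1 neuron was common in these libraries. Stim2 led the pair in 6 of the 7 neurons where either reached 1 FPKM, with 81.8% to 100% of the sum, and Stim1 led in sample 6 with 75.2%.

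Orai2, an entry channel gene of brain and immune cells (chr5:136147459-136170713, minus strand), was second to Atp2a2 by mean, at 12.9 ± 12.9 FPKM (SD, n = 10). The Type-1 neurons held 4.10, 13.4, 34.5 and 11.0 FPKM, the Type-2 neuron held 0.0538 FPKM, and the Unknown neurons held 0.209, 16.5, 34.0, 15.0 and 0.0270 FPKM. The 7 neurons at 4.10 FPKM or more had 734 to 6608 fragments, whereas samples 1, 2 and 10 had 7, 46 and 5. The Type-2 neuron, highest for the pump and for both release channel families, was thus among the 3 neurons with almost no Orai2. The study names samples 1 and 2, but not sample 10, among the libraries with the least cDNA. The part of low cDNA in these Orai2 values was not tested. Sample 3 had Orai2 at 16.5 FPKM with neither sensor gene above 1 fragment.

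Ordered by mean FPKM, the genes ran Atp2a2, Orai2, Stim2, Ryr2, Stim1, Ryr1, Itpr1, Itpr2, Ryr3 and Itpr3. Every neighbouring pair in that order differed by less than the larger of their SDs over neurons. By the number of neurons at 1 FPKM or more, Atp2a2 was found in 10, Orai2 and Stim2 in 7, Ryr2 in 6, Ryr1 and Itpr1 in 4, Itpr2 and Stim1 in 2, Ryr3 in 1 and Itpr3 in 0. At least 5 neurons reached 1 FPKM for 4 of the 10 genes, beside 58.0% of the 12955 genes with a mean of at least 1 FPKM over the neurons. Only 6 of the 10 store genes passed that mean, namely Ryr1, Ryr2, Atp2a2, Stim1, Stim2 and Orai2. Levels between genes depend on the length used. The deposited length is the union of annotated exons, 1.00 to 2.38 times the length of the transcript with the longest coding sequence. With these transcript lengths 45 of the 100 pairs reached 1 FPKM, with Ryr1 at that level in 5 neurons and Stim1 in 3.

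Per neuron, the number of the 10 genes at 1 FPKM was highest in sample 6, with 7 genes, and in the Type-2 neuron, with 6. Samples 5, 8 and 9 had 5, samples 7 and 10 had 4, sample 4 had 3, and samples 2 and 3 had 2. The share of all genes with a mean of at least 1 FPKM that reached it was 37.3% in sample 1, 40.9% in sample 2, 37.9% in sample 3, 47.4% in sample 4 and 49.1% in sample 9. It was 62.8% in sample 7, 63.7% in sample 6, 65.7% in sample 10 and 66.7% in samples 5 and 8. The Type-2 neuron therefore had more store genes on than samples 2, 3 and 4 from the library with the smallest such share.

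Type-1 and Unknown neurons were compared to see whether store genes follow the putative rhythm-generating type. On the scale of mean log2(FPKM + 1), 1 of the 10 genes differed by at least 1 between the 4 Type-1 and the 5 Unknown neurons: Orai2 was higher by 1.02 in Type-1 (3.73 ± 1.15 against 2.72 ± 2.38, SD), with overlapping groups. Over all 12955 genes with a mean of at least 1 FPKM, 22.6% were higher by at least 1 in Type-1 and 12.4% were lower. Orai2 was the 1 gene called among the 6 store genes that passed that mean, which is not above that background. Stim2 was lower in Type-1 by 0.80 and Ryr1, Stim1 and Ryr2 were higher by 0.71, 0.65 and 0.62, none of which reached 1. The median difference was 0.317 over the store genes and 0.168 over all genes. No store gene separated the types, as was so for all but 1.07% of genes.

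The count depended on sample 4, the Type-1 neuron with microglial transcripts, whose part in the difference was not tested. Without it, all Type-1 neurons were Dbx1-derived and all Unknown neurons were WT, so type and mouse line cannot be told apart. In that set 4 genes were higher in Type-1 by at least 1, with differences of 1.48 for Orai2, 1.10 for Ryr2, 1.05 for Ryr1 and 1.01 for Stim1. The median difference over all genes was 0.331 there, against 0.168 with sample 4 included. The share of all genes past 1 was not computed for that set. The Orai2 difference ran from 0.35 to 1.62 when single neurons were left out, and it was 0.85 with TMM library sizes and 0.74 with median-of-ratios library sizes. For Atp2a2 the difference was -0.06 with all 9 neurons and 0.55 without sample 4, and it was -0.71 without sample 10. The Atp2a2 difference also changed sign with the scaling, being 0.16 with TPM and -0.24 with TMM library sizes. Leaving out sample 9, the neuron with motoneuron markers, gave differences of 1.34 for Orai2 and 1.03 for Ryr2.

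Within samples 5 to 10, where type follows mouse line, 3 Type-1 and 3 Unknown neurons remained. For Stim2, the Type-1 neurons held 3.95, 4.49 and 0.425 FPKM and the Unknown neurons 9.12, 7.69 and 4.84 FPKM, so each Unknown neuron lay above each Type-1 neuron. The log2 difference was -1.24. Stim2 was the only store gene whose groups did not overlap, beside 9.29% of all genes. Orai2 was higher in Type-1 by 1.14 and Atp2a2 by 1.05, beside 22.9% of all genes that were higher by at least 1 and 17.6% that were lower. In both genes sample 10 lay far below the other 5 neurons, at 0.0270 FPKM of Orai2 and 1.34 FPKM of Atp2a2, and Orai2 of samples 8 and 9 lay within the Type-1 range. The groups also differed in transmitter genes. GABAergic or glycinergic markers summed to 135 FPKM in sample 10 and to at most 8.31 FPKM in the other 5. The glutamate transporter gene Slc17a6 was at 101, 158 and 156 FPKM in samples 5, 6 and 7. It was at 230, 0.495 and 0.0303 FPKM in samples 8, 9 and 10. The part of transmitter type was not tested.

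**Figure D3:**
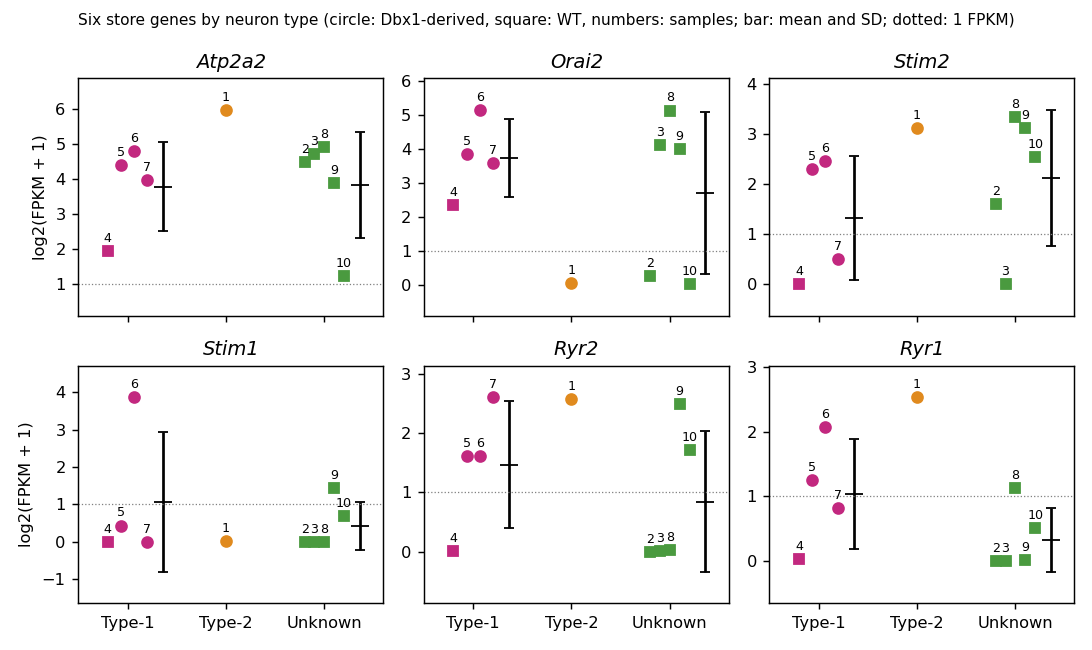
log2(FPKM + 1) of the 6 store genes with a mean of at least 1 FPKM, by neuron type. Points are neurons with their sample number, circles Dbx1-derived and squares WT, the bars give the mean ± SD of the 4 Type-1 and the 5 Unknown neurons, and the dotted line marks 1 FPKM. The Type-1 and Unknown points overlap in each panel.

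Comparing the 4 Dbx1-derived with the 6 WT neurons, 4 store genes were higher by at least 1 in Dbx1-derived neurons and none was lower. Ryr2 was higher by 1.40 (2.11 ± 0.561 against 0.709 ± 1.11, SD), Ryr1 by 1.39 (1.67 ± 0.777 against 0.284 ± 0.459), Atp2a2 by 1.26 (4.78 ± 0.857 against 3.52 ± 1.56) and Itpr1 by 1.09 (1.27 ± 1.06 against 0.186 ± 0.454). Over all genes with a mean of at least 1 FPKM, 28.2% were higher by at least 1 in Dbx1-derived neurons and 16.7% were lower. Of the 4 store genes, Itpr1 did not pass that mean. For each of these genes the groups overlapped, and groups that did not overlap were found for 2.18% of all genes. The 4 Dbx1-derived neurons held 2.07, 2.07, 4.98 and 5.08 FPKM of Ryr2, which overlapped the range of 0.00192 to 4.64 FPKM in the WT neurons, among which samples 9 and 10 carried it. Itpr1 was at 1 FPKM in 3 of 4 Dbx1-derived neurons and in 1 of 6 WT neurons.

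The mouse lines differed in other ways whose part in these differences was not tested. Astrocyte markers summed to 5306, 10482, 6540, 3638, 35.4 and 526 FPKM in the WT neurons (samples 2, 3, 4, 8, 9 and 10) and to 1975, 236, 57.6 and 389 FPKM in the Dbx1-derived neurons (samples 1, 5, 6 and 7). Microglial markers summed to 2039 and 15398 FPKM in the WT samples 2 and 4, against 1.11 to 121 FPKM in the Dbx1-derived neurons. The WT neurons included 3 of samples 1 to 4, the libraries with 5055 to 6795 genes at 1 FPKM, and the Dbx1-derived neurons included 1. The Type-2 neuron was the highest of all for Itpr1, Ryr1 and Atp2a2, and it differed from the other Dbx1-derived neurons in its markers. Its GABAergic or glycinergic markers summed to 261 FPKM, against at most 5.51 FPKM in samples 5 to 7, and its Slc17a6, the glutamate transporter gene of excitatory neurons, was at 0.26 FPKM, against 101, 158 and 156 FPKM. Without it, the differences were 1.24 for Ryr2, 1.10 for Ryr1, 0.87 for Atp2a2 and 0.66 for Itpr1, and Orai2 and Stim1 then passed 1 at 1.54 and 1.08. Without sample 4, Ryr1, Ryr2 and Itpr1 stayed past 1 at 1.34, 1.26 and 1.05, and Atp2a2 was at 0.95. With TPM, TMM and median-of-ratios scaling the 4 genes passed 1. Without sample 10, Atp2a2 was at 0.80. Within samples 5 to 10, where the comparison is the same as that of the types, Ryr1 was at 0.83, Ryr2 at 0.54 and Itpr1 at 0.47, all under 1, while Atp2a2 was at 1.05 and Stim2 at -1.24. The Orai2 difference was 0.51 and had the other sign, -0.02, with median-of-ratios scaling.

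**Figure D4:**
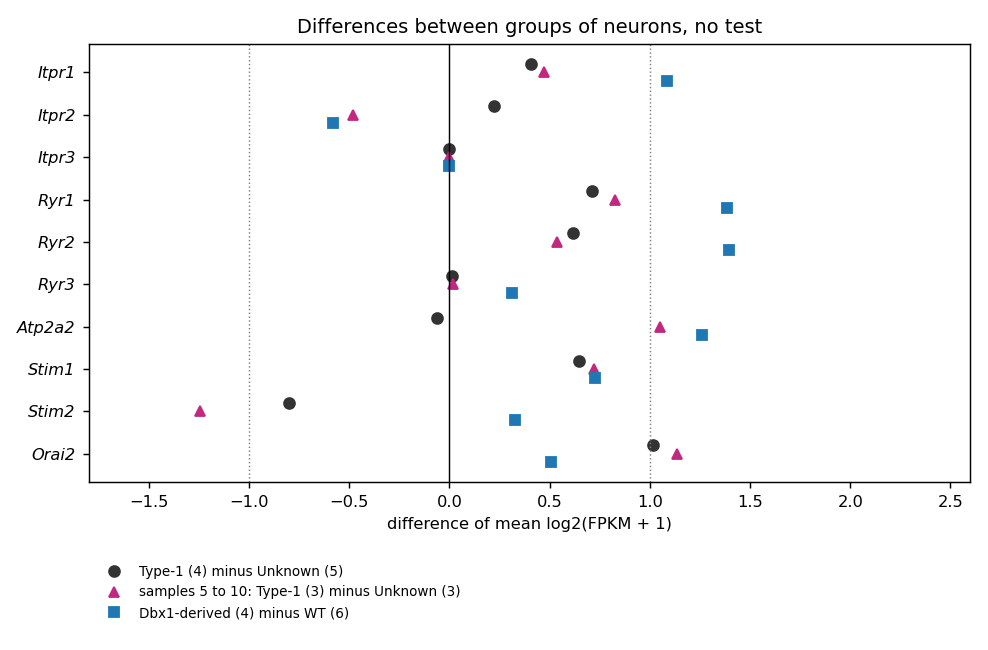
Difference of mean log2(FPKM + 1) for each of the 10 genes in the comparisons of Type-1 with Unknown neurons (circles), of the same types within samples 5 to 10 (triangles) and of Dbx1-derived with WT neurons (squares). The dotted lines mark a difference of 1, and no test was made. Ryr1, Ryr2, Atp2a2 and Itpr1 lie beyond 1 for Dbx1-derived against WT neurons, and Stim2 lies below -1 for the types within samples 5 to 10.

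Age gave no shared order. Ryr2 was at 1 FPKM in 2 of 4 neurons at postnatal day 0, in the day 1 neuron, in 1 of 2 at day 2 and in 2 of 3 at day 3. Orai2 was at that level in 3 of 4 neurons at day 0, not in the day 1 neuron, in 1 of 2 at day 2 and in 3 of 3 at day 3. Both genes were thus on and off within an age wherever more than 1 neuron was sampled, other than Orai2 at day 3. Stim2 was on in 3 of 4 neurons at day 0 and in 1 of 3 at day 3, with means of 5.19 and 1.64 FPKM.

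Some store genes varied together over the neurons, given here as Pearson correlations of log2(FPKM + 1) that share the libraries and their depth. Itpr1 and Ryr1 had r = 0.81 over the 10 neurons and 0.48 over samples 5 to 10, and the Type-2 neuron was highest for both. Itpr2 and Atp2a2 had r = -0.86, the 2 neurons with Itpr2 being the lowest for Atp2a2. Atp2a2 and Orai2 had r = 0.27 over all neurons and 0.99 over samples 5 to 10, where sample 10 was low for both. Ryr2 and Orai2 had r = -0.09.

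Among 7530 genes at 1 FPKM in at least 5 neurons, those nearest to Ryr2 were Agbl5, Slc25a14 and Ttc33, each with r = 0.96 over 10 neurons and with 0.90, 0.93 and 0.89 over samples 5 to 10. Nearest to Stim2 were Zfp61 at 0.93, Nanos1 at 0.92 and Slitrk4 at 0.91. Orai2 was nearest to Ttc39c and Clptm1, both at 0.94, and to Psd2 at 0.92. Atp2a2 was nearest to Gyg at 0.89, Nrbp1 at 0.87 and Gtf3a at 0.87. With 10 neurons and 7530 candidate genes, such values were picked as the highest of many.

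Around the 10 genes, 77 further genes of store calcium handling in 9 lists were measured. Of these, 41 were at 1 FPKM in at least 5 neurons, 16 in at least 9, 7 in all 10, and 13 in none. Between Type-1 and Unknown neurons, 11 were higher and 5 lower by at least 1, and between Dbx1-derived and WT neurons 12 were higher and 7 lower. For all genes with a mean of at least 1 FPKM the shares were 58.0% on in at least 5 neurons and 19.6% in at least 9. By type 22.6% of them were higher and 12.4% lower, and by mouse line 28.2% were higher and 16.7% lower. Only 56 of the 77 genes passed that mean, so their counts cannot be set directly against these shares. In the list of proteins that bind calcium or fold other proteins in the lumen, 9 of 12 genes were on in at least 5 neurons. Calr, which encodes the luminal calcium buffer calreticulin, was at 22.0 FPKM at the lowest, 91.7 at the median and 317 in the Type-2 neuron. Canx and Rcn2 were likewise at 1 FPKM in all 10 neurons, and Hsp90b1 and Pdia3 in 9. Casq1, the calsequestrin of skeletal muscle stores, was at 108 FPKM in the Type-2 neuron and at most 0.0798 FPKM in the others.

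Of the 6 other SERCA isoforms and pump regulators, 5 reached 1 FPKM in no neuron. Mrln, which encodes the SERCA-inhibiting peptide myoregulin, was at 10.0 FPKM in the Type-2 neuron, 0.0330 FPKM in sample 7 and 0 in the others. Among the 6 store-operated entry partners, Saraf, which encodes a brake on store-operated entry, was in all 10 neurons, with 19.9 FPKM in sample 10 as the lowest level and 244 FPKM in sample 9 as the highest. Orai1 reached 1 FPKM in samples 4 and 8, at 13.3 and 28.2 FPKM, and Orai3 in samples 2, 4 and 7, at 78.6, 10.4 and 43.0 FPKM. Both were chosen after their values were seen. Sample 2, almost without Orai2, thus held Orai3, while samples 1 and 10 held none of the 3 ORAI genes at 1 FPKM.

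For calcium extrusion across the plasma membrane, 6 of 9 genes were on in at least 5 neurons, and the pump genes Atp2b2 and Atp2b1 were on in 10 and 9. Atp2b2 was lower in Type-1 neurons by 1.04, with its lowest level, 1.67 FPKM, in sample 4, and the difference within samples 5 to 10 was -0.59. Between all Type-1 and all Unknown neurons, 3 of the 9 genes were higher by at least 1 and 1 was lower. The shares were 22.6% and 12.4% over all genes with a mean of at least 1 FPKM. For the partners of ryanodine receptors, 6 of 12 genes were on in at least 5 neurons. Fkbp1a, which encodes the channel-stabilizing protein FKBP12, was on in 9 of 10 neurons at 66.6 to 199 FPKM and at 0.545 FPKM in the Type-2 neuron, the neuron with the most ryanodine receptor transcript. In IP3 production and removal, 5 of 12 genes were on in at least 5 neurons, among them the G protein gene Gna11 and the phospholipase C gene Plcb4, each in 9. Gna11 was at 0.0663 FPKM in sample 4 and at 9.49 FPKM or more in the others, and Plcb4 was at 0.0782 FPKM in the Type-2 neuron, the neuron with the most Itpr1.

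Among the 8 partners of IP3 receptors, 5 were on in at least 5 neurons. Ahcyl1, which encodes the IP3 receptor-binding protein IRBIT, was in 9 neurons and was lower in Type-1 by 1.05, with 0.147 FPKM in sample 4 and 16.9 FPKM or more elsewhere. Within samples 5 to 10 its difference was -0.08. Tmco1, a gene for a calcium leak channel of the endoplasmic reticulum, was on in 8 neurons with a median of 10.2 FPKM. Of the 9 genes of mitochondrial calcium uptake, 7 were on in at least 5 neurons. Vdac1 was at 65.0 to 274 FPKM and Smdt1 at 28.7 to 239 FPKM in all 10 neurons, and Micu3 and Letm1 were on in 9.

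**Figure D5:**
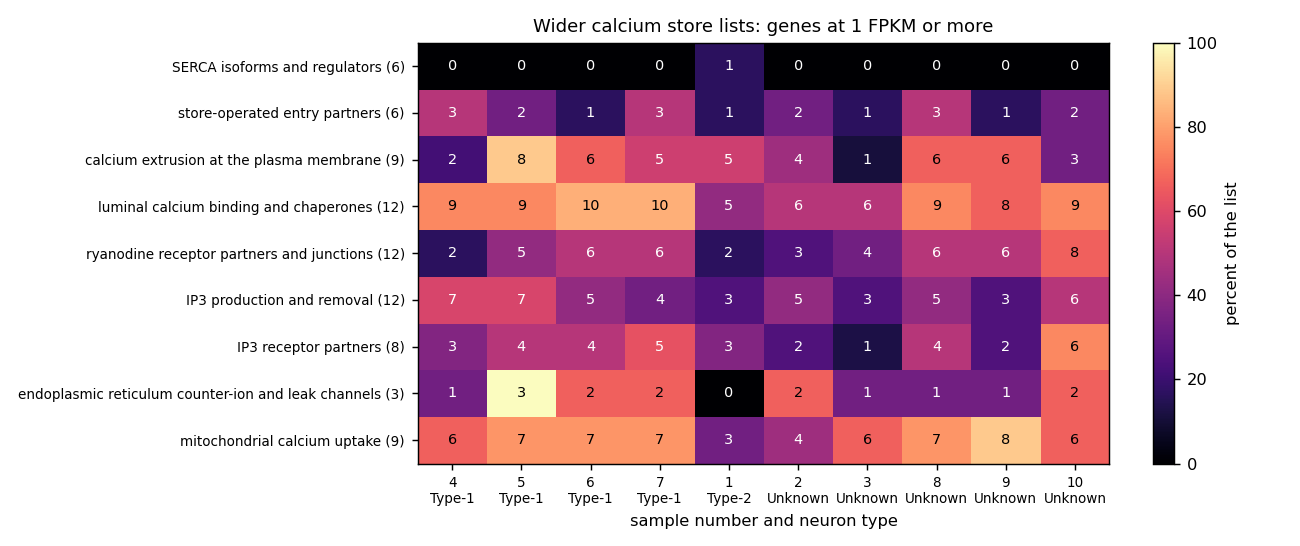
Number of genes at 1 FPKM or more in each of the 9 wider lists (rows, list size in parentheses) and each neuron (columns, by sample number and type), coloured by the percent of the list. Luminal binding genes and mitochondrial uptake genes were on most widely, and the list of other SERCA isoforms and regulators had 1 gene on, in the Type-2 neuron.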

How the data were processed

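RNA drawn from 10 patched neurons was sequenced as paired 150 base reads after SMART-Seq v4 and Nextera preparation. The authors trimmed reads with bbduk, aligned them with STAR 2.7.7a to GRCm38 with Ensembl 102 annotation, checked them with FastQC 0.11.8, and counted fragments per gene with featureCounts, whose options are not given in the sources used here. They deposited these raw counts, gene lengths in bases and FPKM values that their R scripts made from them. FPKM recomputed from the counts and lengths differed by at most 5.09e-11.

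The members and gene lists were chosen with earlier results of these data known. Deposited FPKM were used as they stood. A gene counted as on at 1 FPKM, and group differences were taken on log2(FPKM + 1), called at 1 or more, over 12955 genes with a mean of at least 1 FPKM. No tests or p-values were made. Replicates are single neurons, and whether they came from separate animals is not stated. Named genes were the 10 members, in each wider list the gene of highest mean and those on in at least 9 neurons, the 3 genes most like a member, and marker genes beside a member's value. Genes outside that rule are marked as chosen after their values were seen. Fragments belonging to other libraries were estimated from genes that had 3000 counts or more in a single library and no more than 1% as many in every other one. Alternatives were pseudocount 0.1, TPM, TMM factors (edgeR 4.0.16), median-of-ratios factors, other thresholds and leaving out neurons. Transcript lengths, an alternative added after seeing the data, sequences and positions came from GENCODE M21 on GRCm38. The difference calculation was tested on simulated counts that held set changes and counting error only. That test does not cover variation between neurons. Scripts ran in Python 3.11.15 (pandas 2.3.3, SciPy 1.17.1) and R 4.3.3.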

Additional observations from a re-analysis of the deposited data

Results flagged for a closer look

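Within the Type-1 and Unknown neurons, 18 sets of values of a store gene could be examined for 1 neuron far from the others of its type by Dixon's criterion, and 7 held such a neuron. For normally distributed values about 1 in 20 sets would do so by chance. That rate does not apply where all the other neurons are at 0, since any value above 0 then meets the criterion, as for Itpr2 in sample 4 and for Ryr3 in both types. Nor does it apply where the others are all at or near 0, as for Itpr1 in sample 8 and Itpr2 in sample 10. In Type-1 neurons these were Itpr2 in sample 4, at 3.13 FPKM where the others were at 0, Stim1 in sample 6, at 13.6 FPKM where the others were at 0.353 FPKM or less, and Ryr3 in sample 7, at 0.0349 FPKM or 17 fragments where the others were at 0. In Unknown neurons they were Itpr1 in sample 8, at 1.16 FPKM where the others were at 0.00301 FPKM or less, Itpr2 in sample 10, at 1.67 FPKM where the others were at 0.0127 FPKM or less, Atp2a2 in sample 10, at 1.34 FPKM where the others were at 13.7 to 29.1 FPKM, and Ryr3 in sample 2, at 0.00145 FPKM, which is 1 fragment, where the others were at 0. All but the Atp2a2 value were neurons above the others, in genes at or near 0 in most neurons.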

How the results depend on the processing

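Of pairs of store gene and neuron, 43% were at 1 FPKM, and 29% to 50% under the alternatives, with 40% to 45.6% when each neuron was left out. The number of store genes past a difference of 1 between Type-1 and Unknown neurons was 1, and it was 5 with pseudocount 0.1, 3 with TPM, 3 in samples 5 to 10 alone, 0 with TMM library sizes and 0 with median-of-ratios library sizes. Leaving out single neurons gave 0 to 4, with 0 without sample 2 (Unknown replicate 1) or sample 10 (Unknown replicate 5), 2 without sample 3, 7 or 9, and 4 without sample 4. These counts join both directions. They include 1 gene lower in Type-1 with pseudocount 0.1, in samples 5 to 10 alone and without sample 3. Without sample 5 or 6 the count stayed at 1, but the gene was Stim2, at -1.13 and -1.18, and Orai2 was at 0.98 and 0.54. Between Dbx1-derived and WT neurons the number of store genes past 1 was 4. It was 8 with pseudocount 0.1, of which 7 were higher and 1 lower, and 3 to 5 when single neurons were left out. The median over all genes moved from 0.168 to 0.344 with TPM for Type-1 against Unknown, and from 0.224 to 0.574 with TPM and 0.0552 with median-of-ratios for Dbx1-derived against WT. The cause of these changes was not tested. Of the values for single genes, 521 moved by less than 1 SD over neurons, or by less than 1.5 times for a count of neurons, and 29 by more. Of 310 recomputed differences 18 changed sign, none of them from a difference past 1, among them Stim1 for Type-1 against Unknown (0.65, -0.28 without sample 6) and Stim2 for Dbx1-derived against WT (0.33, -1.24 in samples 5 to 10). Itpr1 was on in 2 neurons, not 4, with TMM or median-of-ratios scaling, Ryr1 in 2, not 4, with median-of-ratios scaling, and Stim1 in 4, not 2, with TPM. Atp2a2 was on in 9 neurons, not 10, with TMM or median-of-ratios scaling. No paired analysis was possible because replicate numbers only name neurons in accession order and the comparisons came from no test.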
